A study of Homo sapiens with 12 samples.

Results

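The genes of replication licensing and fork machinery described here are 43 human genes that build the apparatus for copying DNA. They were taken as the human Ensembl rows whose GENCODE 29 symbol is one of the 43, out of 58243 human gene IDs listed, and all 43 were found and passed the filter on low counts. The lowest count of any of them in a library was 33 and the highest was 2842. By role, they were 9 genes of origin recognition and licensing, 2 of the firing kinase, 6 MCM2–7 genes and 6 of helicase activation. The rest were 9 genes of the polymerases, 6 of the sliding clamp and its loader, 2 of Okazaki fragment maturation and 3 of RPA.

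RNA was sequenced from 12 tumours of MCFDCIS, a human breast cell line that grows as lesions resembling ductal carcinoma in situ, with 3 tumours in each of 4 groups. In every group the cells had been injected under the skin of athymic nude mice, which lack T cells but keep other mouse stroma, and the tumours had 2 weeks to establish. The groups were tumours given palbociclib, an inhibitor of the kinases CDK4 and CDK6, daily at 50 mg/kg by oral gavage for 2 weeks and taken at the end of treatment (called initial in the labels); tumours given vehicle for 2 weeks and taken at that stage; tumours given palbociclib for 2 weeks and then left to recover; and tumours given vehicle for 2 weeks and taken at the recovery stage. The sources used here do not give the length of the recovery. The labels name each tumour but not the animal it came from, and p-values therefore reflect only how much these tumours varied. The vehicle tumours are the study's stated baseline.

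In a cell that is about to divide, the origin recognition complex (ORC1–6) binds origins, and CDC6 and CDT1 then load the MCM2–7 ring on DNA in inactive form, a step called licensing that geminin (GMNN) blocks by holding CDT1. The DBF4-dependent kinase CDC7, with CDC45, GINS and MCM10, turns the ring into the active helicase, and polymerases alpha, delta and epsilon copy the strands while RFC loads the PCNA clamp. CDK4 and CDK6 phosphorylate RB, which otherwise holds E2F transcription factors inactive, and many replication genes are known E2F targets.

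Because E2F factors bind sites close to TTTSSCGC, in which S is C or G, the promoters of the members were searched for the 4 words that this allows. RefSeq promoter windows of GRCh38.p14, which run from 250 bases before to 50 after a transcription start, were listed for 37 of the 43 genes. Both strands were searched for TTTCCCGC (word 1), TTTGGCGC (word 2), TTTCGCGC (word 3) and TTTGCCGC (word 4). At least 1 word stood in a window of 19 of the 37 genes, which is 51.4%, against 3.99% of 27305 genes with a window and 6.3% of the tested genes with one. Of all 35116 windows, 3.31% held a word. Word 1 was found in 10 genes, word 2 in 7, word 3 in 5 and word 4 in 0.

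The following sequences are the bases just before the transcription start, 5′ to 3′ on the strand of the gene, with the words in capitals on whichever strand they read. CDT1, GMNN, POLA2 and RFC3 are shown because they fell under palbociclib and hold a word, PCNA and MCM6 because they hold words and did not pass the test, and MCM10 and ORC2 because they hold none, with MCM10 the most negative of the 43 and ORC2 near 0.
CDT1 (chr16:88803669-88803788, plus strand): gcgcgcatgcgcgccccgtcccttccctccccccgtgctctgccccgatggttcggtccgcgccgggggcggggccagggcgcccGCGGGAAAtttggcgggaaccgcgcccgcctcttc
GMNN (chr6:24775293-24775412, plus strand): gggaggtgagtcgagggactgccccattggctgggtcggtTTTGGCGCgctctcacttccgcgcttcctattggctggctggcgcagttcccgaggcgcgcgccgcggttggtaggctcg
POLA2 (chr11:65261842-65261961, plus strand): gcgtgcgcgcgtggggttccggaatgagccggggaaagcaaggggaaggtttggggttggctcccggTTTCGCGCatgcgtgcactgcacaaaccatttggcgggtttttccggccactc
RFC3 (chr13:33818029-33818148, plus strand): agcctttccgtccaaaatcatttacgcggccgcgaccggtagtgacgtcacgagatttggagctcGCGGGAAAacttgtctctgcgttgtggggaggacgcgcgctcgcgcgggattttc
PCNA (chr20:5126623-5126742, minus strand): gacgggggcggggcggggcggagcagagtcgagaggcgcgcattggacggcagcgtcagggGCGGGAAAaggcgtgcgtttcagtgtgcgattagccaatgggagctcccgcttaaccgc
MCM6 (chr2:135876444-135876603, minus strand): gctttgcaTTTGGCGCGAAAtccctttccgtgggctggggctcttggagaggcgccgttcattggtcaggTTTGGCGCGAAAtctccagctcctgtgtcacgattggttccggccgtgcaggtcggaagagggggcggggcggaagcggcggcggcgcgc
MCM10 (chr10:13161438-13161557, plus strand): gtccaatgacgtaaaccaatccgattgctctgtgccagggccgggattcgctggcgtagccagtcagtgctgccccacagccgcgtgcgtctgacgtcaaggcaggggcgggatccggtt
ORC2 (chr2:200963661-200963780, minus strand): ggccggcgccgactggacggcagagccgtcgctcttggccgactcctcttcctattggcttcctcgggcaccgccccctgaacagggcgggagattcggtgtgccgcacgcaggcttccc
In MCM6 words 2 and 3 overlap on opposite strands in each of 2 runs, so that its 4 matches are 2 places. A match describes letters in a window, not a bound site, and the absence of a match says only that these letters are not there.

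Libraries held 8004903 to 15716211 counts in genes, of which 14.2% to 25.4% were on mouse genes, and 18628 human genes were tested. Levels are given as counts per 1000000 human counts (CPM), scaled by edgeR's TMM factors, and a gene passed where its edgeR quasi-likelihood test had a Benjamini-Hochberg adjusted p under 0.05 over all 18628. The human rows carried the breast basal keratins KRT5, KRT14 and KRT17 with TP63 at a summed 4896 to 8538 CPM and the epithelial markers KRT8, KRT18, EPCAM and CDH1 at 1803 to 2815 CPM. CD3E and CD68 had at most 2 counts in any library, and the 4 immune markers, of which CD14 gave most counts, summed to 4.12 to 11.4 CPM. CDH5 had at most 6 counts, whereas PECAM1 and KDR were present in all libraries and the 4 endothelial markers summed to 51.8 to 140 CPM. LUM had at most 11 counts, and the 4 fibroblast markers summed to 4.53 to 10.5 CPM except in the vehicle recovery group, where they reached 44.7 CPM. Vehicle recovery tumour 2 lay apart from the other 11 libraries, at 113 on a first principal component (42.8% of variance) where the others lay between −37.6 and 14.2. The mitochondrial share of human counts was 5.32% and 11.2% in vehicle tumours 2 and 3 at the end of treatment, against 0.674% to 2.64% in the other 10 libraries. In bulk tumours, fewer cells in cycle and less replication RNA per cell cannot be told apart.

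At the end of treatment, palbociclib tumours had less RNA than vehicle tumours of 4 licensing genes, of MCM10, CDC45 and GINS3 among the helicase activators, of POLA2, PRIM1 and POLD3 among the polymerase genes, of 3 clamp loader genes and of FEN1 and LIG1, while ORC2–5, the core of the origin recognition complex, had log2 fold changes of −0.16 to 0.15 and did not pass. The largest falls were in MCM10, the helicase activator, in the licensing genes ORC1, CDC6, GMNN and CDT1, and in the primase gene PRIM1, by 1.26 to 1.75 on the log2 scale. In all, 15 of the 43 genes fell and 0 rose, against 1.7% of all tested genes that fell and 0.14% that rose. The median log2 fold change of the 43 was −0.73, beside 0.00 for all tested genes, and 40 of the 43 were negative, against 49.9% of all tested genes. At an unadjusted p under 0.05 there were 36 of the 43, against 9.87% of all tested genes. The 3 palbociclib tumours lay below the 3 vehicle tumours in 34 genes and above them in 1, ORC5, where 11.3% and 9.39% of all tested genes did so.

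**Figure D1:**
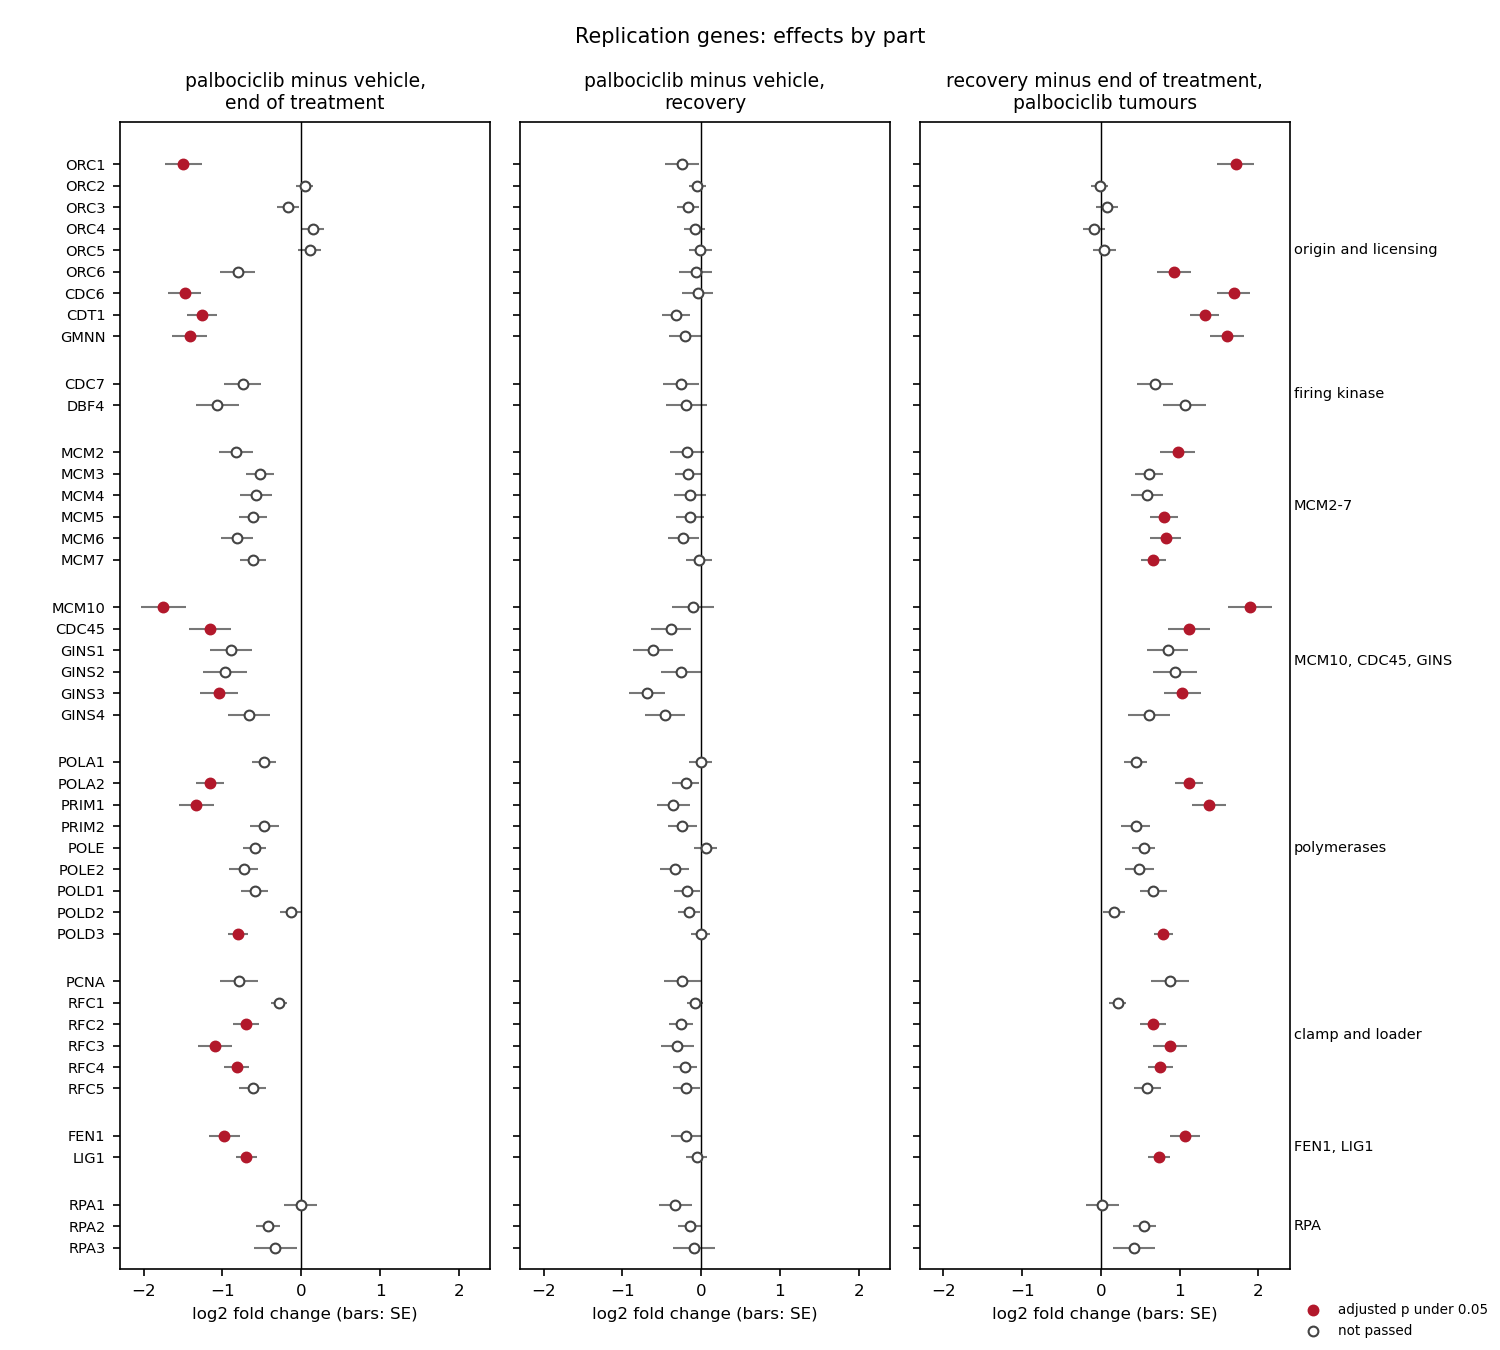
Log2 fold changes (x axis) with their SE as bars for the 43 genes, grouped by role, in 3 comparisons, with filled points at an adjusted p under 0.05. At the end of treatment 15 points are filled, all below 0, and in the recovery panel 0 are filled.

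Among the genes of origin recognition and licensing, 4 of 9 fell and ORC2–5 did not pass. CDC6, the ATPase that brings CDT1 and the MCM ring to ORC, had 11.0, 17.2 and 9.53 CPM in palbociclib tumours, against 36.0, 35.0 and 33.8 CPM in vehicle tumours. The groups were far apart, with a log2 fold change of −1.48 ± 0.21 (SE; adjusted p 0.00147, edgeR). CDT1, the licensing factor, had 8.17, 11.2 and 6.06 CPM in palbociclib tumours, against 21.3, 21.8 and 17.8 CPM in vehicle tumours. Its log2 fold change was −1.26 ± 0.19 (adjusted p 0.00209). GMNN, the inhibitor of CDT1, had 5.33, 6.39 and 4.33 CPM in palbociclib tumours, against 15.6, 14.6 and 12.3 CPM in vehicle tumours. It fell by 1.41 on the log2 scale (SE 0.22, adjusted p 0.00276), so that the licensing factor and its inhibitor were both lower and their groups did not overlap. ORC1, the ORC subunit known to vary over the cell cycle in human cells, had 4.88, 4.84 and 3.18 CPM in palbociclib tumours, against 11.5, 11.8 and 13.3 CPM in vehicle tumours. Its log2 fold change was −1.49 ± 0.24 (adjusted p 0.00313). ORC2, a core ORC subunit, had 40.8, 44.0 and 42.2 CPM in palbociclib tumours, against 38.2, 43.9 and 41.2 CPM in vehicle tumours, and the groups overlapped. The log2 fold changes of ORC2, ORC3, ORC4 and ORC5 were 0.04, −0.16, 0.15 and 0.11, with SE of 0.11 to 0.15. That of ORC6, the smallest subunit, was −0.81 (edgeR adjusted p 0.10). DESeq2, used as an alternative test, called ORC6 (adjusted p 0.035) and did not call ORC2–5.

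**Figure D2:**
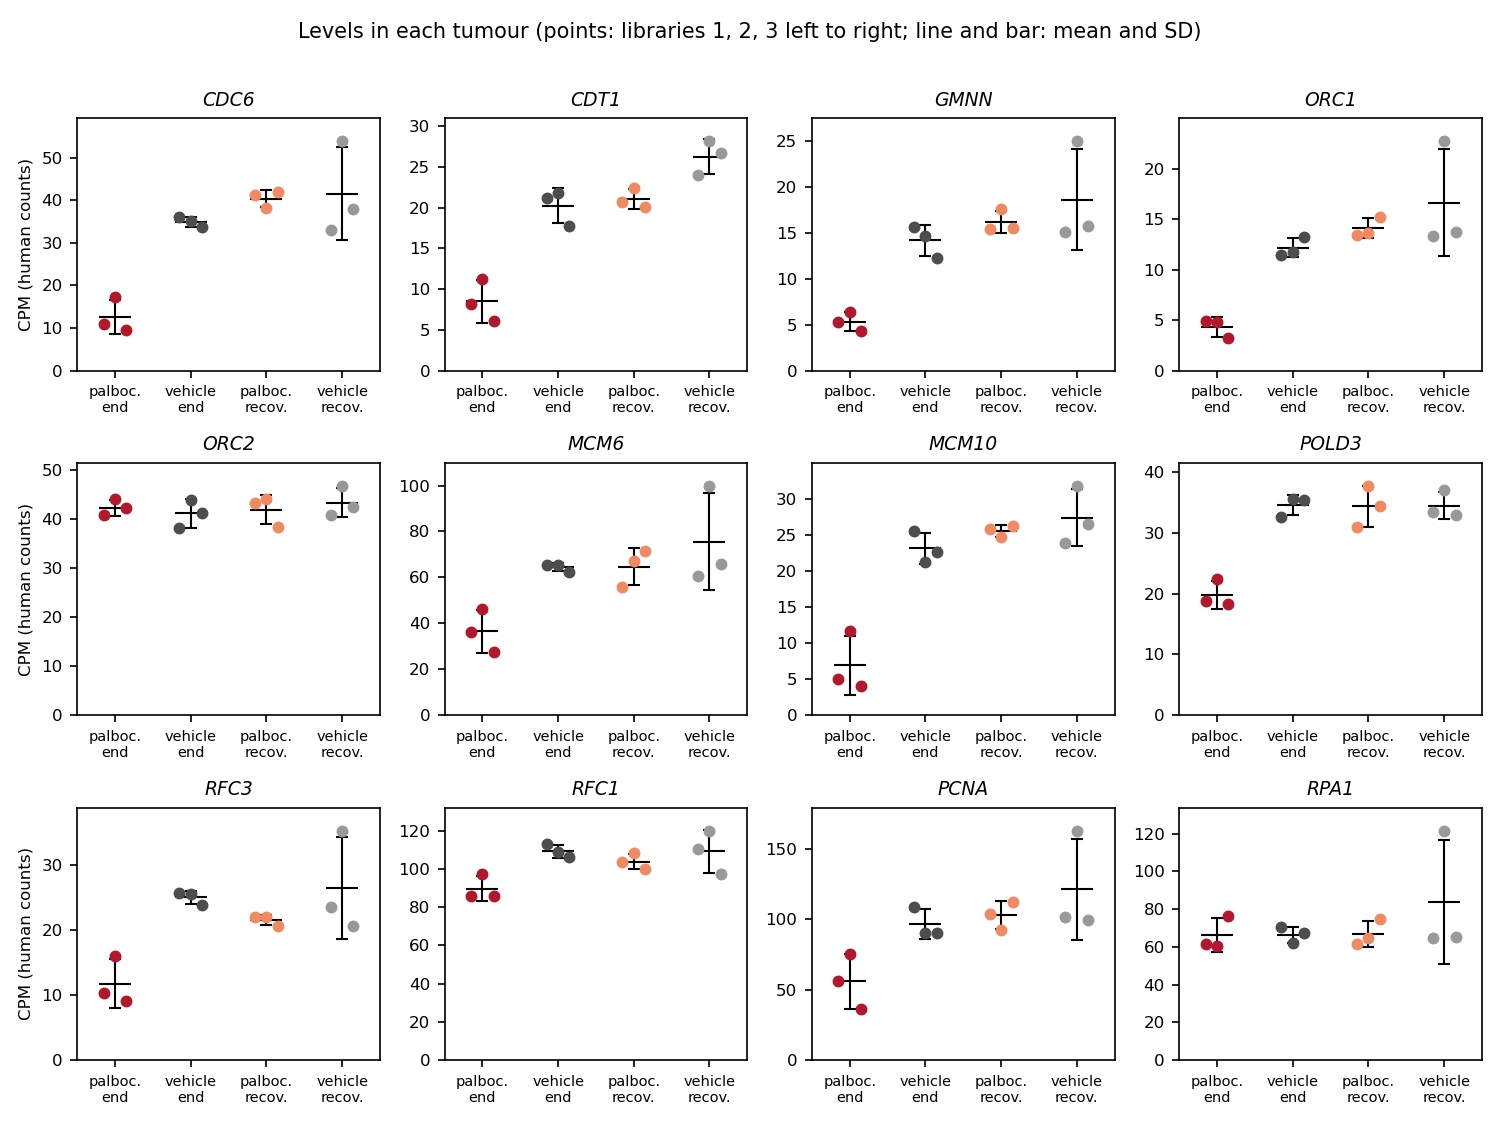
Level in CPM of human counts (y axes, from 0) of 12 of the genes in each tumour, with 3 points per group and the mean and SD drawn as a line and bar. The palbociclib tumours at the end of treatment are lowest for CDC6, CDT1, GMNN, ORC1, MCM10 and POLD3, while ORC2 and RPA1 overlap between the groups, and vehicle recovery tumour 2 is the highest point in most panels.

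In GENCODE 29, on GRCh38, the licensing genes that fell are ORC1 (ENSG00000085840) at chr1:52372829-52404459, CDC6 (ENSG00000094804) at chr17:40287633-40304657, CDT1 (ENSG00000167513) at chr16:88803213-88809258 and GMNN (ENSG00000112312) at chr6:24774931-24786099. The helicase activator is MCM10 (ENSG00000065328) at chr10:13161554-13211104, and the genes of the polymerases that fell are POLA2 (ENSG00000014138) at chr11:65261762-65305589, PRIM1 (ENSG00000198056) at chr12:56731596-56752373 and POLD3 (ENSG00000077514) at chr11:74493851-74669117.

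Neither subunit of the firing kinase passed. DBF4, the regulatory subunit, had 11.8, 14.5 and 8.37 CPM in palbociclib tumours, against 25.3, 26.0 and 21.0 CPM in vehicle tumours. CDC7, the catalytic subunit, had 10.3, 13.5 and 8.47 CPM in palbociclib tumours, against 19.2, 17.9 and 16.7 CPM in vehicle tumours. Every palbociclib tumour lay below every vehicle tumour for both genes. Their log2 fold changes were −1.06 (edgeR adjusted p 0.085) and −0.74 (edgeR adjusted p 0.18), with SE of 0.28 and 0.23. DESeq2 called DBF4 (adjusted p 0.017) and did not call CDC7 (adjusted p 0.12).

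None of the MCM2–7 genes, which encode the ring of the replicative helicase, passed the test either, and all 6 were negative with groups that did not overlap. The log2 fold changes were −0.83 for MCM2, −0.52 for MCM3, −0.57 for MCM4, −0.62 for MCM5, −0.82 for MCM6 and −0.61 for MCM7, with edgeR adjusted p from 0.062 to 0.29. DESeq2 called MCM2, MCM6 and MCM7 (adjusted p 0.028, 0.019 and 0.042) and did not call MCM3, MCM4 or MCM5. MCM6 had 36.4, 46.1 and 27.3 CPM in palbociclib tumours, against 65.4, 65.6 and 62.3 CPM in vehicle tumours. MCM4 had 129, 162 and 89.4 CPM in palbociclib tumours, against 211, 185 and 167 CPM in vehicle tumours. For both genes the lowest and the highest palbociclib tumour were further apart than the vehicle tumours were.

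Of the 6 genes that turn the ring into an active helicase, 3 fell. MCM10, which is needed for origins to unwind, had 5.06, 11.6 and 4.04 CPM in palbociclib tumours, against 25.5, 21.3 and 22.6 CPM in vehicle tumours. Its log2 fold change of −1.75 ± 0.29 was the most negative of the 43 (adjusted p 0.00490). CDC45, a helicase cofactor, and GINS3, one of the 4 GINS subunits, fell by 1.16 and 1.05 on the log2 scale (adjusted p 0.039 and 0.041). GINS1, GINS2 and GINS4 had log2 fold changes of −0.89, −0.97 and −0.66 and did not pass (edgeR adjusted p 0.15, 0.13 and 0.38). DESeq2 called GINS2 (adjusted p 0.040) and did not call GINS1 or GINS4. GINS4 had 8.52, 10.4 and 5.39 CPM in palbociclib tumours, against 16.0, 11.1 and 11.0 CPM in vehicle tumours, so that the groups were separated by a small gap.

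Of the 9 polymerase genes 3 fell, and they belong to polymerase alpha with its primase and to polymerase delta. POLE and POLE2, the genes of polymerase epsilon among the 9, were close to the threshold. POLA2, the B subunit of polymerase alpha, had 8.88, 9.78 and 8.28 CPM in palbociclib tumours, against 21.3, 19.2 and 19.6 CPM in vehicle tumours, a log2 fold change of −1.16 ± 0.18 (adjusted p 0.00276). PRIM1, the catalytic subunit of primase, had 6.04, 3.71 and 3.46 CPM in palbociclib tumours, against 11.9, 10.4 and 11.0 CPM in vehicle tumours, and fell by 1.33 on the log2 scale (adjusted p 0.00495). POLD3, an accessory subunit of polymerase delta, had 18.7, 22.5 and 18.3 CPM in palbociclib tumours, against 32.6, 35.5 and 35.3 CPM in vehicle tumours, and fell by 0.80 on the log2 scale (adjusted p 0.00295). In each of these 3 genes the vehicle tumours lay within a narrow range well above the palbociclib tumours. Their partners did not pass. The log2 fold changes were −0.47 for POLA1, the catalytic subunit of polymerase alpha, and −0.47 for PRIM2, the large primase subunit (edgeR adjusted p 0.19 and 0.39). They were −0.59 for POLE and −0.73 for POLE2 of polymerase epsilon (edgeR adjusted p 0.058 and 0.076). The groups did not overlap for either gene, and DESeq2 called both (adjusted p 0.012 and 0.021). POLD1, the catalytic subunit of polymerase delta, had a log2 fold change of −0.59 (edgeR adjusted p 0.13). POLD2, the B subunit of polymerase delta, had 74.7, 77.2 and 67.8 CPM in palbociclib tumours, against 90.8, 76.0 and 74.1 CPM in vehicle tumours. Its groups overlapped at a log2 fold change of −0.13.

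In the clamp and its loader, 3 of 6 genes fell: RFC2, RFC3 and RFC4, small subunits of the loader, by 0.70, 1.09 and 0.82 on the log2 scale (adjusted p 0.040, 0.017 and 0.014). RFC4 had 23.4, 23.9 and 18.1 CPM in palbociclib tumours, against 46.7, 33.4 and 34.7 CPM in vehicle tumours, with no overlap. RFC5, the other small subunit, had a log2 fold change of −0.61 (adjusted p 0.11). RFC1, the large subunit, had 85.9, 97.5 and 85.8 CPM in palbociclib tumours, against 113, 109 and 106 CPM in vehicle tumours, a log2 fold change of −0.28 (SE 0.11, adjusted p 0.31). PCNA, the clamp itself and a common marker of proliferating cells, had 56.1, 75.2 and 36.4 CPM in palbociclib tumours, against 109, 90.2 and 90.5 CPM in vehicle tumours. The groups did not overlap, but its log2 fold change of −0.79 ± 0.24 did not pass (adjusted p 0.18).

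Both genes of Okazaki fragment maturation fell. FEN1, the flap endonuclease, had 21.9, 24.6 and 16.3 CPM in palbociclib tumours, against 48.0, 39.3 and 35.6 CPM in vehicle tumours, a log2 fold change of −0.97 (SE 0.19, adjusted p 0.017). LIG1, the ligase that seals the fragments, had 36.8, 44.4 and 30.0 CPM in palbociclib tumours, against 62.1, 60.7 and 57.3 CPM in vehicle tumours, a log2 fold change of −0.70 (SE 0.14, adjusted p 0.015). The tumours of the groups were apart in both genes. RPA, which coats single-stranded DNA also during repair, showed no call. RPA2 had 27.9, 23.6 and 24.4 CPM in palbociclib tumours, against 41.8, 30.9 and 28.1 CPM in vehicle tumours, with a log2 fold change of −0.42. RPA1 had 61.3, 60.7 and 76.6 CPM in palbociclib tumours, against 70.3, 61.8 and 67.2 CPM in vehicle tumours, and overlapped at −0.01, while RPA3 had −0.33 (adjusted p 0.81).

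The number of genes called depended on single tumours. With all 12 libraries 15 of the 43 and 343 of all tested genes passed. The number of the 43 was 8 without palbociclib tumour 1, palbociclib tumour 3 or vehicle tumour 1 of the end of treatment. All tested genes gave 160, 173 and 262 calls in those fits. Without vehicle tumours 2 and 3 of that stage in turn, 9 and 13 passed, beside 196 and 269 of all tested genes. Without palbociclib tumour 2 of that stage 22 passed, beside 295 of all tested genes. Without vehicle recovery tumour 2 it was 25, beside 748 of all tested genes. ORC1, CDC6, CDT1, GMNN, MCM10, POLA2, PRIM1 and POLD3 passed in all 7 fits that left out 1 end-of-treatment tumour or vehicle recovery tumour 2. Without both vehicle tumours of high mitochondrial share, which leaves 1 vehicle tumour at that stage, the median log2 fold change of the 43 was −0.83.

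Palbociclib tumour 3 at the end of treatment was the lowest of the 12 libraries for 36 of the 43 genes, and vehicle recovery tumour 2 was the highest for 39. The same counts over all tested genes were not made, and vehicle recovery tumour 2 lay apart over all tested genes as well. Whether these counts are particular to the 43 was therefore not tested. Relative to each gene's mean over the 12 libraries, on a log2(CPM + 0.5) scale, the median of the 43 genes was −0.57, −0.31 and −0.91 in the palbociclib tumours at the end of treatment, against 0.26, 0.12 and 0.01 in the vehicle tumours at that stage. It was 0.13, 0.14 and 0.20 in the palbociclib recovery tumours, against 0.19, 0.67 and 0.15 in the vehicle recovery tumours. MKI67, a marker of cycling cells that is not among the 43, had 37.6, 56.0 and 28.8 CPM in the palbociclib tumours at the end of treatment, against 185, 271 and 200 CPM in the vehicle tumours. The mouse share of gene counts was 25.4% in palbociclib tumour 3 and averaged 20.0% ± 4.69 in palbociclib tumours and 16.5% ± 0.961 in vehicle tumours at the end of treatment (SD, n = 3 each; exact two-sided permutation p 0.2, where 0.1 is the smallest possible). With the mouse share as a covariate 7 of the 43 genes passed at that stage. Of all 18628 tested genes 147 passed with it, against 343 without it. An unadjusted edgeR p under 0.05 was found with it for 29 of the 43 and for 1283 of the 18628. The median log2 fold change of the 43 was −0.57 with 40 of 43 negative. The basal markers summed to 5907 to 6693 CPM in palbociclib tumours and 4896 to 5201 CPM in vehicle tumours at that stage, without overlap. KRT5, KRT14 and KRT17 were each higher without overlap, as were 9.39% of all tested genes, and KRT5 passed (log2 fold change 0.74, edgeR adjusted p 0.040). TP63 overlapped, at 61.4 to 76.4 CPM in palbociclib tumours and 68.9 to 109 CPM in vehicle tumours. PECAM1 was at 65.0 to 114 CPM in palbociclib tumours and 43.4 to 62.6 CPM in vehicle tumours (log2 fold change 0.70, adjusted p 0.20), while the 4 endothelial markers summed to 82.8 to 140 CPM in palbociclib tumours and 61.7 to 91.8 CPM in vehicle tumours. The fibroblast markers summed to 4.53 to 6.57 CPM in palbociclib tumours and 6.22 to 10.5 CPM in vehicle tumours, and these, the endothelial, the epithelial and the immune sums overlapped. The part of these markers, of the mouse share and of the mitochondrial share in the result was otherwise not tested.

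**Figure D3:**
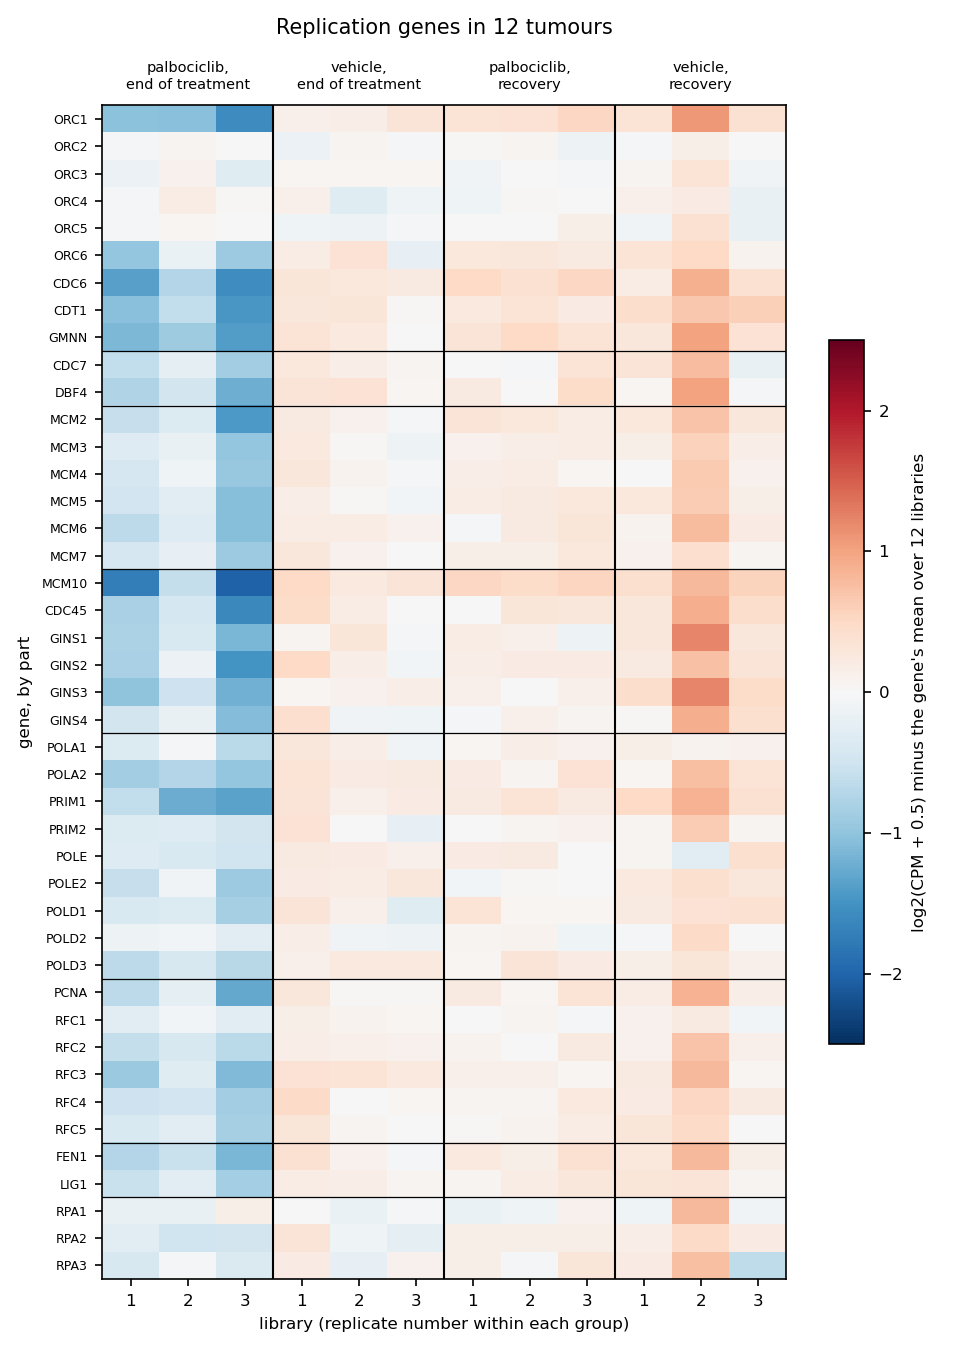
Log2(CPM + 0.5) of each of the 43 genes (rows, by role) in each of the 12 tumours (columns) minus the gene's mean over the 12, blue below and red above the mean. The 3 palbociclib tumours at the end of treatment are blue in most rows, with medians of −0.57, −0.31 and −0.91, and vehicle recovery tumour 2 is red.

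Levels of different genes can be set side by side per kilobase of exon. The length used was that of all annotated exons of a gene merged, such as 1471 bases for PCNA and 5475 for GINS4. The order of the genes therefore depends on the annotation. In vehicle tumours at the end of treatment PCNA was the most abundant of the 43 and MCM7 was next, with MCM4, MCM3, POLD2 and MCM2 after it. PCNA had 38.0 ± 13.2 CPM per kilobase in palbociclib tumours and 65.6 ± 7.23 CPM per kilobase in vehicle tumours (SD, n = 3 each), and MCM7 had 23.2 ± 5.52 and 35.3 ± 3.64 CPM per kilobase in the same groups. MCM4, MCM3, POLD2 and MCM2 averaged 26.9, 26.6, 21.7 and 21.5 CPM per kilobase in vehicle tumours, with SD of 3.17, 3.51, 2.48 and 1.98. MCM4 and MCM3 lay within their SD of each other, as did POLD2 and MCM2. The lowest in vehicle tumours were GINS4, with 1.48 ± 0.463 CPM per kilobase in palbociclib tumours and 2.32 ± 0.516 in vehicle tumours, and GINS3, with 1.15 ± 0.319 and 2.38 ± 0.117 CPM per kilobase. In palbociclib tumours MCM10, at 1.27 ± 0.756 CPM per kilobase, and ORC1 were also below GINS4. ORC1 was below ORC2 in every tumour, at 1.36 ± 0.308 CPM per kilobase in palbociclib tumours and 3.85 ± 0.300 in vehicle tumours, whereas ORC2 was at 7.25 ± 0.277 and 7.04 ± 0.491.

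The ratio between partners in one complex was compared within each tumour, which needs no scaling between libraries. The ratio of ORC1 to ORC2, per length, was 0.139 to 0.221 in palbociclib tumours and 0.495 to 0.595 in vehicle tumours at the end of treatment, and was 0.571 to 0.733 in palbociclib recovery tumours and 0.599 to 0.899 in vehicle recovery tumours. The ratio of PRIM1 to PRIM2 was 0.547 to 0.911 in palbociclib tumours and 1.09 to 1.51 in vehicle tumours at the end of treatment. That of POLA2 to POLA1 was 0.26 to 0.349 in palbociclib tumours and 0.443 to 0.54 in vehicle tumours. In each of these pairs the first gene was low relative to its partner in all 3 palbociclib tumours. POLD3 to POLD2 gave 0.168 to 0.195 in palbociclib tumours and 0.241 to 0.32 in vehicle tumours. RFC3 to RFC1 gave 0.246 to 0.383 in palbociclib tumours and 0.525 to 0.549 in vehicle tumours. MCM10 to MCM2 gave 0.069 to 0.135 in palbociclib tumours and 0.18 to 0.212 in vehicle tumours. The ratios of these 3 pairs did not overlap between the groups either. MCM6 to MCM4 was separated by less, at 0.479 to 0.518 in palbociclib tumours and 0.525 to 0.632 in vehicle tumours. Of 14 pairs computed, 11 were lower in palbociclib tumours without overlap and 3 overlapped. The 3 were CDT1 to its inhibitor GMNN, at 1.04 to 1.3 in palbociclib tumours and 1.01 to 1.1 in vehicle tumours, POLE2 to POLE, at 0.665 to 1.13 in palbociclib tumours and 0.896 to 1.02 in vehicle tumours, and RPA2 to RPA1, at 0.865 to 1.24 in palbociclib tumours and 1.14 to 1.62 in vehicle tumours. These pairs were chosen after the values were seen and the ratios have no test. In all pairs but CDT1 to GMNN, the gene with the more negative log2 fold change at the end of treatment was put first. The direction of those ratios therefore follows from the fold changes already given. How many other pairs of genes would not overlap was not computed.

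**Figure D4:**
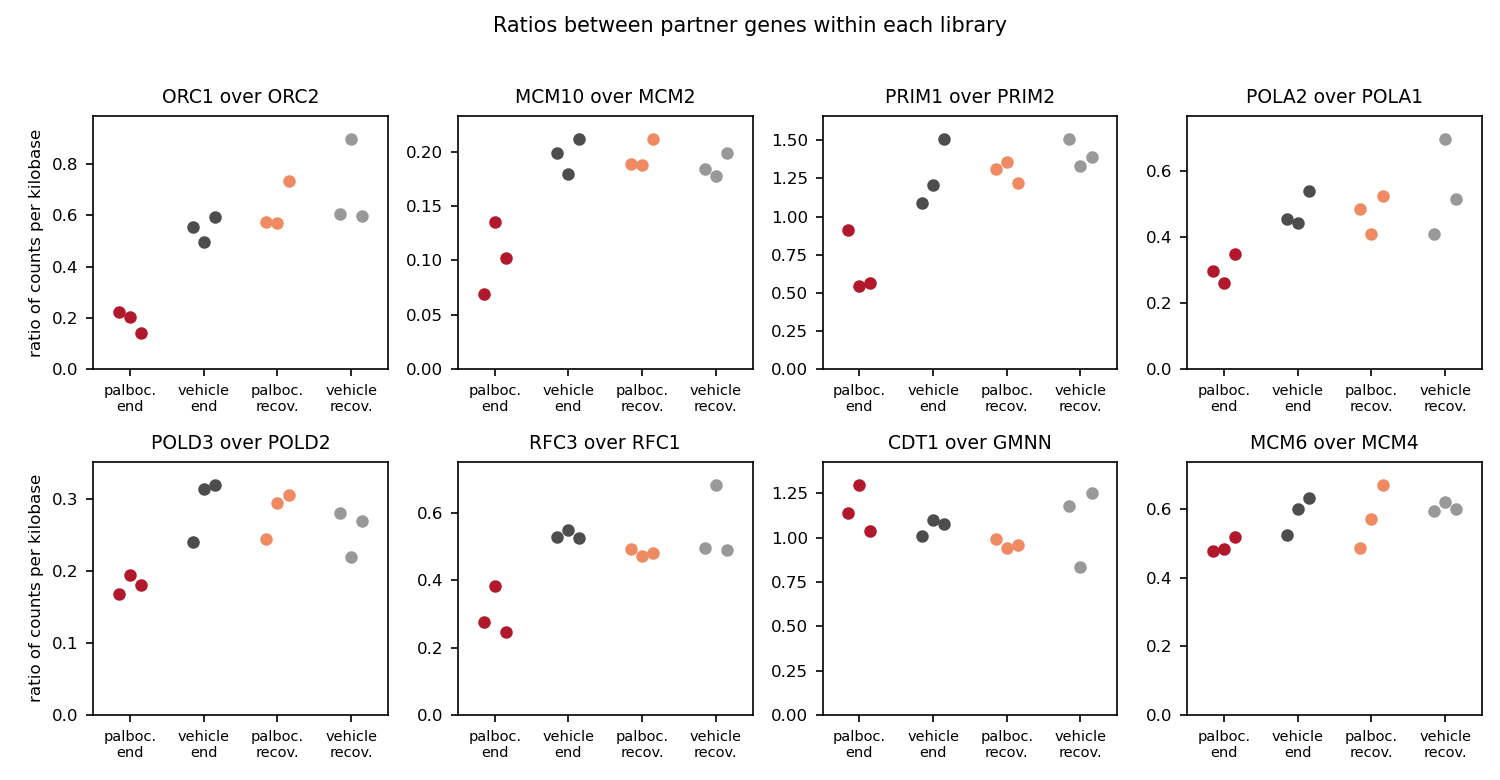
Ratio of counts per kilobase between 2 genes within each tumour (y axes, from 0), with 1 point per tumour and 4 groups per panel. ORC1 over ORC2 is 0.139 to 0.221 in palbociclib tumours at the end of treatment and at least 0.495 in the other groups, while CDT1 over GMNN overlaps.

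The promoter words described above were set beside these changes. A word stood in 7 of the 14 genes that fell and had a listed window, and in 12 of the 23 that did not pass. The median log2 fold change at the end of treatment was −0.82 for genes with a word and −0.66 for genes without one. MCM10, ORC1 and PRIM1 were among the largest falls and held no word in their windows, whereas ORC3, at −0.16, held one. Of all tested genes that fell and had a window, 43 of 233 held a word, which is 18.5%. In the first 120 bases before the start, PCNA, which did not pass, and RFC3, which fell, carry word 1 on the strand opposite to the gene at bases −59 to −52 and −55 to −48, counted from the start.

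**Figure D5:**
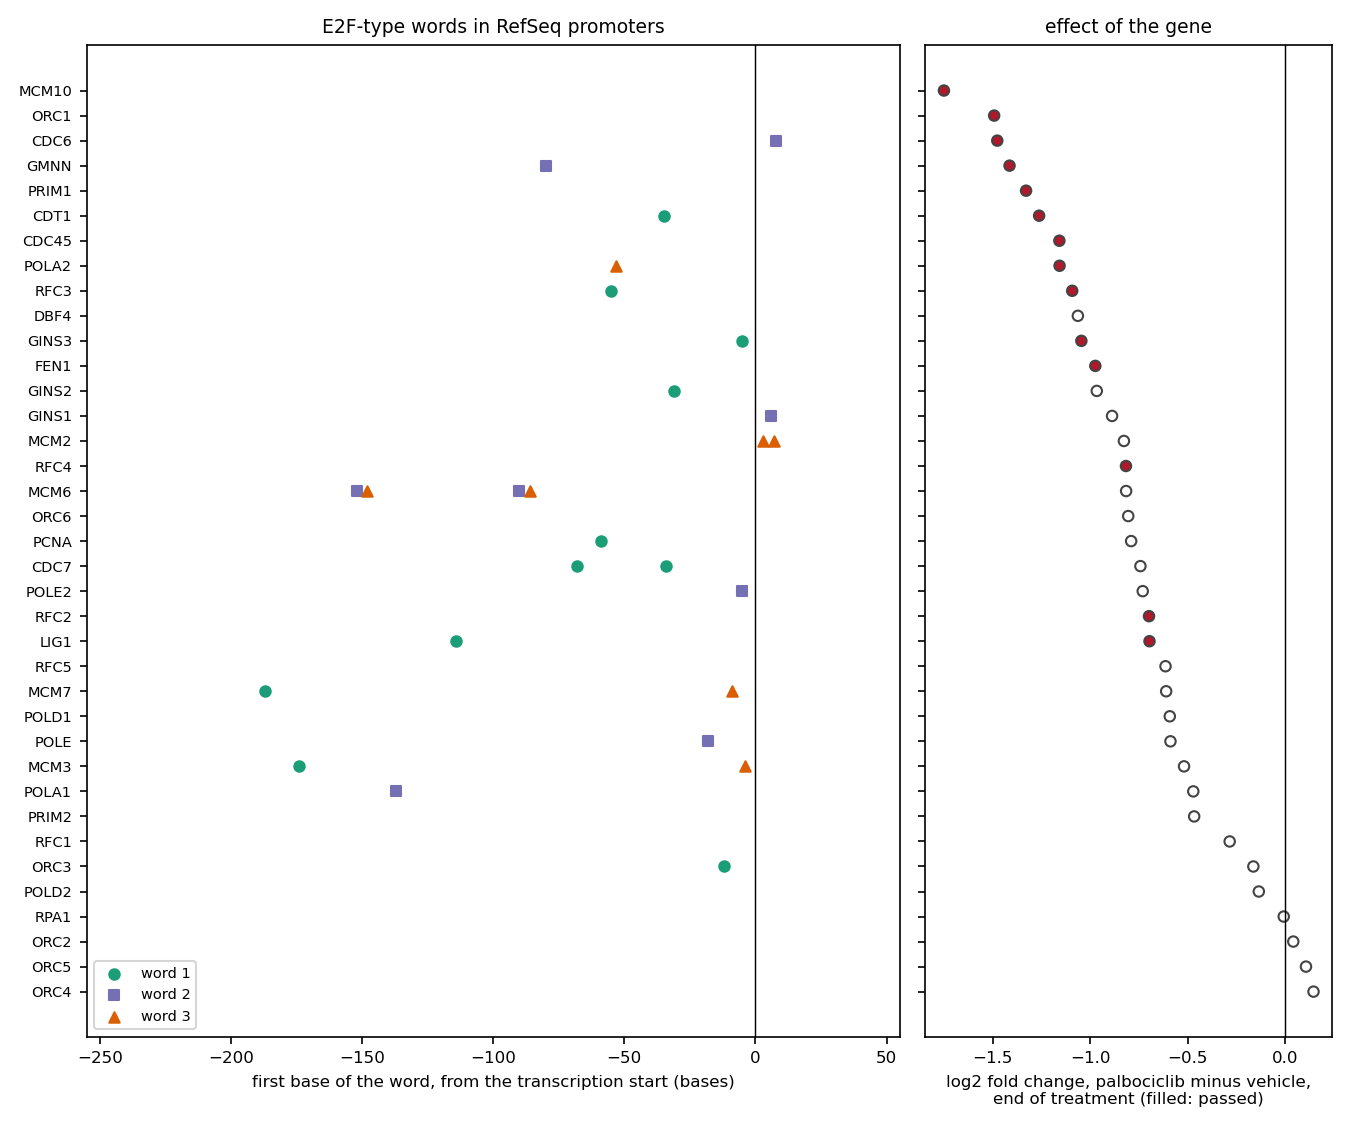
Position of the first base of each promoter word relative to the transcription start in bases (left, word 1 TTTCCCGC, word 2 TTTGGCGC, word 3 TTTCGCGC) for the 37 genes with a listed window, ordered by their log2 fold change at the end of treatment (right, filled where the gene passed). Words are scattered over the whole order, in 7 of 14 genes that fell and 12 of 23 that did not pass.

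At the recovery stage, 0 of the 43 genes passed between palbociclib and vehicle tumours, where 1 gene of all tested fell (0.00537%) and 0 rose (0%). edgeR gave 2 of the 43 an unadjusted p under 0.05, against 8.66% of all tested genes, and DESeq2 also called 0 of them. The median log2 fold change was −0.19, beside 0.00 for all tested genes, and 42 of 43 were negative, against 50.3% of all tested genes. Without vehicle recovery tumour 2 the median was −0.01 and 23 were negative. The mouse share averaged 20.7% ± 1.44 in palbociclib recovery tumours and 16.3% ± 1.93 in vehicle recovery tumours (SD, n = 3 each; exact two-sided permutation p 0.1, the smallest possible), and with it as a covariate the median was −0.03 and 24 were negative. CDC6 had 41.2, 38.1 and 41.9 CPM in palbociclib recovery tumours, against 33.0, 53.9 and 37.9 CPM in vehicle recovery tumours. MCM10 had 25.7, 24.6 and 26.2 CPM in palbociclib recovery tumours, against 23.9, 31.7 and 26.5 CPM in vehicle recovery tumours. The groups overlapped for both genes, at log2 fold changes of −0.04 and −0.10. CDT1 had 20.7, 22.4 and 20.1 CPM in palbociclib recovery tumours, against 24.0, 28.2 and 26.7 CPM in vehicle recovery tumours, with a log2 fold change of −0.32 (adjusted p 0.58). CDT1, GINS1, GINS2, GINS3, PRIM1, POLE2 and RPA2 were the 7 genes whose palbociclib tumours all lay below the vehicle tumours, where 5.51% of all tested genes did so.

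The 2 genes with an unadjusted p under 0.05 at recovery were subunits of GINS. GINS3 had 12.4, 11.4 and 12.4 CPM in palbociclib recovery tumours, against 15.5, 27.0 and 15.6 CPM in vehicle recovery tumours. GINS1 had 18.3, 17.4 and 14.6 CPM in palbociclib recovery tumours, against 19.5, 37.9 and 19.5 CPM in vehicle recovery tumours. In both genes vehicle recovery tumour 2 was far above the rest. The log2 fold changes were −0.69 for GINS3 and −0.61 for GINS1 (adjusted p 0.57 for both), and without that tumour they were −0.37 and −0.22.

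Within palbociclib tumours, 20 of the 43 genes were higher at recovery than at the end of treatment and 0 were lower, against 2.36% and 0.467% of all tested genes. This comparison uses the same 3 end-of-treatment palbociclib tumours as the first one, so its values are given beside them and not as separate support. By role, those that rose were 5 of 9 licensing genes, 0 of 2 firing kinase genes, 4 of 6 MCM2–7 genes, 3 of 6 helicase activation genes, 3 of 9 polymerase genes, 3 of 6 clamp and loader genes, both genes of Okazaki fragment maturation and 0 of 3 RPA genes. The rises, on the log2 scale, were 1.71 for ORC1, 1.69 for CDC6, 1.32 for CDT1, 1.60 for GMNN and 0.93 for ORC6. Among the ring genes they were 0.98 for MCM2, 0.80 for MCM5, 0.82 for MCM6 and 0.67 for MCM7 (adjusted p 0.027 to 0.044), whereas MCM3 and MCM4 were at 0.61 and 0.59 without passing. In the helicase activators they were 1.89 for MCM10, 1.12 for CDC45 and 1.03 for GINS3. In the polymerases they were 1.12 for POLA2, 1.37 for PRIM1 and 0.79 for POLD3, and in the loader 0.66 for RFC2, 0.87 for RFC3 and 0.75 for RFC4. FEN1 and LIG1 rose by 1.06 and 0.74.

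The levels show how the stages relate within single genes. PCNA had 104, 92.4 and 113 CPM in palbociclib recovery tumours, against 56.1, 75.2 and 36.4 CPM at the end of palbociclib treatment, and did not pass (log2 fold change 0.88, adjusted p 0.084). MCM6 had 55.7, 66.9 and 71.3 CPM in palbociclib recovery tumours, against 36.4, 46.1 and 27.3 CPM at the end of treatment. GMNN had 15.5, 17.6 and 15.6 CPM in palbociclib recovery tumours, against 5.33, 6.39 and 4.33 CPM at the end of treatment. The stages did not overlap in these 3 genes. In all, 36 of the 43 genes were higher at recovery without overlap and 0 were lower, against 14.9% and 14.2% of all tested genes, and 35 had an unadjusted p under 0.05, against 14.4%. The log2 fold change was negative in 2 of the 43, ORC2 and ORC4, against 51.5% of all tested genes. ORC2, ORC3, ORC4, ORC5, POLD2, RPA1 and RPA3 were the 7 that overlapped.

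The number that rose also moved with single tumours. With all 12 libraries 20 of the 43 and 439 of all tested genes rose. Without palbociclib tumours 1 and 3 of the end of treatment it was 9 and 8 of the 43, beside 184 and 212 of all. Without palbociclib tumour 2 of that stage it was 22, beside 319. Without each palbociclib recovery tumour in turn it was 10, beside 254, 245 and 278. It was 13 without vehicle tumour 2 of the end of treatment, beside 376 of all tested genes. Without vehicle recovery tumour 2 it was 29, beside 979. ORC1, CDC6, CDT1, GMNN, MCM10, POLA2, PRIM1 and POLD3 passed in all 7 fits without 1 palbociclib tumour or vehicle recovery tumour 2.

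Between the stages of vehicle tumours, recovery against the end of treatment, 0 of the 43 genes passed, as for all tested genes (0% in each direction), and edgeR gave 2 an unadjusted p under 0.05, against 14.4% of all tested genes, while DESeq2 called 0 of the 43. Those 2 were GINS3 (log2 fold change 0.68, adjusted p 0.32) and GINS1 (0.57, adjusted p 0.34). ORC1, CDT1, MCM2, GINS3 and PRIM1 were the 5 genes higher at recovery without overlap, and 0 were lower, against 6.7% and 8.03% of all tested genes, and 3 of the 43 were negative, against 50.6%. The median log2 fold change was 0.21, recovery minus end of treatment, and was 0.04 without vehicle recovery tumour 2. FEN1 had 44.1, 64.9 and 40.5 CPM in vehicle recovery tumours, against 48.0, 39.3 and 35.6 CPM in vehicle tumours at the end of treatment. LIG1 had 67.1, 68.3 and 57.2 CPM in vehicle recovery tumours, against 62.1, 60.7 and 57.3 CPM in vehicle tumours at the end of treatment. The stages overlapped in both.

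Whether the effect of palbociclib differed between the stages was tested directly, as the recovery effect minus the end-of-treatment effect, and 0 of the 43 passed, against 0.22% of all tested genes with a positive and 0% with a negative difference. edgeR gave 17 of the 43 an unadjusted p under 0.05, against 5.22% of all tested genes, and the median difference was 0.49 on the log2 scale, with 6 of the 43 negative, against 48.7% of all tested genes. The smallest p was that of CDC6, with a difference of 1.44 ± 0.29 (SE; adjusted p 0.071). POLD3, MCM10, GMNN and ORC1 followed with 0.79, 1.65, 1.21 and 1.26 (adjusted p 0.12, 0.18, 0.22 and 0.24). DESeq2 called 3 of the 43, CDC6, MCM10 and POLD3. Without vehicle recovery tumour 2, edgeR called 8, ORC1, CDC6, GMNN, DBF4, POLA2, POLD3, RFC3 and FEN1, with differences of 0.85 to 1.67, and without palbociclib tumour 2 of the end of treatment it called 2. For ORC2–5 the differences were −0.23 to 0.00.

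Of 34 other genes of replication and its chromatin, listed by role, 10 fell at the end of treatment and 0 rose, against 1.7% and 0.14% of all tested genes, with a median log2 fold change of −0.53. The 4 with the smallest p were DTL, the substrate receptor that marks CDT1 for destruction, at −1.96 ± 0.19 (adjusted p 9.1e-05), TICRR, which helps load CDC45, at −1.42 ± 0.22 (adjusted p 0.00236), CLSPN, the fork checkpoint mediator claspin, at −1.35 ± 0.23 (adjusted p 0.00546), and CHAF1A, a subunit of the histone chaperone CAF-1, at −0.73 ± 0.13 (adjusted p 0.00644). DTL averaged 12.1 ± 1.87 CPM in palbociclib tumours and 47.2 ± 2.39 CPM in vehicle tumours at the end of treatment, and its level at recovery averaged 43.1 ± 3.56 CPM after palbociclib and 54.5 ± 17.2 CPM after vehicle (SD, n = 3 each). At recovery 0 of the 34 passed between palbociclib and vehicle tumours, with 1 at an unadjusted p under 0.05, against 8.66% of all tested genes.

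Exons of 18 of the 43 genes overlap those of another gene in GENCODE 29, in 15 cases on the opposite strand. The labels do not say whether counting used strand, so reads of partners on the opposite strand cannot be told apart in those stretches. Where the partner lies on the same strand, a strand setting would not separate the reads either. Of the genes that fell, overlap of either kind touches GINS3, POLA2, PRIM1, POLD3, RFC4, FEN1 and LIG1. The longest stretch is in POLA2, with 2012 of 5726 exon bases shared with AP000944.2 on the same strand. Annotated PCNA pseudogenes held 16 counts in all, against 11495 for PCNA.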

How the data were processed

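The authors deposited 1 file of raw counts for each of the 12 tumours, with human and mouse Ensembl genes together. STAR, cutadapt, edgeR and CASAVA 1.8 are listed in the submitters' processing notes with the builds GRCh38 and GRCm38 but without their roles, and no source used here states the counter, its strand setting or the annotation release. In each file 4 rows that name no gene held 37.0% to 69.1% of all counts and were left out, as were 713 repeated rows with identical values. The share of the unnamed rows was 61.9% and 69.1% in vehicle tumours 2 and 3 at the end of treatment. It was 37.0% in vehicle recovery tumour 2 and 48.7% to 57.3% in the other libraries, and its part in the results was not tested. Symbols came from GENCODE 29 for 57980 of 58243 human IDs. Human counts, 6613880 to 12352064 per library, were fitted in edgeR 4.0.16 (R 4.3.3) with TMM, filterByExpr (minimum count 10, minimum total 15), all 12 libraries in 4 group means, robust glmQLFit and glmQLFTest, and Benjamini-Hochberg adjustment over 18628 genes. The common biological coefficient of variation was 0.18. DESeq2 1.42.0 was an alternative. How reads that match both species were assigned is not stated, and this could change the counts of conserved genes. The fit was tested on simulated counts. Samples were grouped by the labels, and replicate numbers follow accession order and pair nothing. Replicates of a group differed by more than counting noise (chi-square per degree of freedom 4.55 to 63.2).

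Values in every library are given for the genes with the smallest and the largest p of each role, for PCNA and for CDT1 and GMNN; values per library of ORC1, PRIM1, POLD3, GINS1 and GINS3 were added after they were seen. The 43 genes, the 34 other replication genes, the markers and the promoter words were chosen with earlier results of these data known. Promoter windows and their sequences are from RefSeq on GRCh38.p14.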

Additional observations from a re-analysis of the deposited data

Results flagged for a closer look

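DTL, the receptor of the ligase that removes CDT1 from replicating DNA, was the only gene of the 43 and the 34 other replication genes whose palbociclib effect differed between the stages by edgeR's test of the difference over all 12 libraries. The difference, recovery effect minus end-of-treatment effect, was 1.62 on the log2 scale (SE 0.26, edgeR adjusted p 0.020). Its log2 fold change was −0.34 at recovery and −1.96 at the end of treatment, palbociclib minus vehicle. DESeq2 gave a difference of 1.60, and edgeR without vehicle recovery tumour 2 gave 1.92. DTL did not pass in 10 of the 12 fits that left out 1 tumour (adjusted p 0.056 to 0.092) and passed only without palbociclib tumour 2 of the end of treatment or without vehicle recovery tumour 2; the difference was 1.49 to 1.92 over the 12. Without both vehicle tumours of high mitochondrial share it was 1.60 and did not pass (adjusted p 0.29). In other fits that called it DTL was not alone. DESeq2 also called CDC6, MCM10, POLD3, TICRR and CHAF1A, and edgeR without vehicle recovery tumour 2 also called 8 of the 43 genes and MCMBP, CLSPN, CHAF1A and ASF1B.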

How the results depend on the processing

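No paired analysis was possible because the labels give no replicate numbers that groups share. The cause of the moves below was not tested, except that leaving out tumours leaves fewer samples. For the effect of palbociclib at the end of treatment, 343 genes and 15 of the 43 passed. DESeq2 gave 524 and 23, no low-count filter 753 and 29, the mouse share as covariate 147 and 7, and only the groups compared 689 genes and 22 of the 43. Without both vehicle tumours of high mitochondrial share the counts were 95 and 1, and leaving out 1 tumour gave 160 to 748 genes and 8 to 25 of the 43. At recovery 1 gene passed, against 20 with DESeq2, 794 without a low-count filter, 3 without the 3 tumours that stand apart (vehicle tumours 2 and 3 of the end of treatment and vehicle recovery tumour 2, added after seeing the data), and 0 with a minimum count of 50, with the mouse share, with only the groups compared and without both high-mitochondrial tumours; leaving out 1 tumour gave 0 to 3. For the difference of the effects, 41 genes and 0 of the 43 passed. DESeq2 gave 104 and 3, no filter 320 and 4, the minimum count of 50 gave 2 of the 43, the fit without both high-mitochondrial tumours 4 genes, and the fit without the 3 tumours 143 and 7 with a median of 0.777 against 0.488; leaving out 1 tumour gave 12 to 161 genes and 0 to 8 of the 43. For recovery against the end of treatment in palbociclib tumours, 526 genes and 20 of the 43 passed. DESeq2 gave 822 genes, no filter 1147 and 31, only the groups compared 1616 genes, the fit without both high-mitochondrial tumours 339 and 11, the fit without the 3 tumours 1772 genes, and leaving out 1 tumour 205 to 1425 genes and 8 to 29 of the 43. In vehicle tumours 0 genes passed, against 84 with DESeq2, 1124 and 1 of the 43 without a filter, 32 without the 3 tumours, 1 with RLE size factors, 1 without mitochondrial genes in the library sizes, 1 with scaling by genes outside the replication lists (added after seeing the data), and 0 to 6 on leaving out 1 tumour. The median of the 43 there was −0.0858 without the 3 tumours, the reverse of 0.215.

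Reversals otherwise touched values near 0. At the end of treatment ORC4 was −0.0652 without both high-mitochondrial tumours and −0.0701 without the 3 tumours, RPA1 was 0.0091 without a filter and 0.0013 at a minimum count of 50, and leaving out 1 tumour gave −0.0061 to 0.0948 for ORC2 and −0.118 to 0.0546 for RPA1. At recovery CDC6 was 0.0121 at a minimum count of 50, 0.119 with the mouse share and 0.198 without the 3 tumours, and MCM10 was 0.206 and 0.026 in the last 2 of these; leaving out 1 tumour gave −0.191 to 0.195 for CDC6 and −0.196 to 0.0229 for MCM10. Between the stages in palbociclib tumours ORC2 was 0.00624 without a filter, RPA1 was −0.0117 at a minimum count of 50 and −0.00779 with the mouse share, and leaving out 1 tumour gave −0.051 to 0.0445 for ORC2, −0.0129 to 0.197 for ORC3, −0.00938 to 0.0721 for ORC5 and −0.0697 to 0.138 for RPA1. Of the values of single genes at the end of treatment, 897 kept direction and side of the threshold over these settings, 72 lost a call, 56 gained one and 9 reversed. The lowest count of a member in a library was 33, which limits the precision of the low genes.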
